A study of Oryctolagus cuniculus with 57 samples.

Results

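The ileum, the last stretch of the small intestine, carries enteroendocrine cells, single hormone-secreting cells scattered through the epithelium. The genes GCG, PYY, NTS, CCK, SST, GIP, CHGA, CHGB, SCG2 and TPH1 of these cells were looked up by symbol among the probes of a rabbit microarray, and 6 of the 10 names, PYY, NTS, SST, GIP, SCG2 and TPH1, had a named probe in the authors' value table. They were covered by 10 of its probes, 5 of them for NTS, and they are 6 of the 7960 named genes tested. GCG, CCK, CHGA and CHGB had no named probe and are not analysed here.

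Ileal tissue of 57 commercial hybrid rabbits (PS Hyplus 19 × PS Hyplus 39), males or females, was taken at 35 days of age, when they were weaned, or at 49 days, each rabbit giving 1 array. In the nest, the mothers' feces were taken away from all kits. Kits of the NF group were left without feces, those of the FF group were given feces of unrelated does, and those of the FFab group were given feces of unrelated does that had been treated with tetracycline and tiamulin. At 35 days of age 10 FF, 10 NF and 10 FFab rabbits were measured, and at 49 days 9 of each. The litter and the sex of a rabbit are not in the labels used here, so the p-values take rabbits as independent.

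Each hormone is classically assigned to a kind of enteroendocrine cell. L cells, frequent in the distal gut, secrete peptide YY (PYY), which slows transit and curbs appetite, and N cells, also mainly ileal, secrete neurotensin (NTS), which is released by fat. D cells secrete somatostatin (SST), which restrains other endocrine cells, and K cells, known mainly from the upper small intestine, secrete glucose-dependent insulinotropic polypeptide (GIP), which raises insulin release after a meal. Secretogranin II (SCG2) is a protein of the secretory granules of endocrine cells and neurons alike, and TPH1 makes serotonin in enterochromaffin cells and is, in rodents, also expressed by mast cells. The tissue was ground whole, so the cells that gave a signal are not known. For the same reason fewer cells of a type and less RNA per cell cannot be told apart.

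The probes of the 4 hormones are shown because each takes in codons of the hormone itself, given in capitals. The signal is that of the messenger, not of the peptide. Sequences are those of the array design in the deposited files, 5′ to 3′, each 60 bases long, placed on the rabbit build oryCun2.
NTS: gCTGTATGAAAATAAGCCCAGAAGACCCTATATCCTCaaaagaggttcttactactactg
PYY: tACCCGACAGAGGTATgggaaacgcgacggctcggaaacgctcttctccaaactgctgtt
GIP: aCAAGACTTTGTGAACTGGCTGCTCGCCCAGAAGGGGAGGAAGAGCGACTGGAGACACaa
SST: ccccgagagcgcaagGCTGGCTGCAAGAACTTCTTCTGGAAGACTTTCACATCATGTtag

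The NTS probe (chr4:65049439-65049498, plus strand) held 12 codons of neurotensin followed by the codons of the Lys-Arg cleavage site. The 5 NTS probes were shifted against each other by single bases and shared 56 bases, so they were repeat readings of 1 site (r between probes 0.996 to 0.998 over 56 arrays). The PYY probe (chr19:44337332-44337500, minus strand, a span of 169 bases that takes in intron sequence) held the last 5 codons of peptide YY, then Gly-Lys-Arg. The GIP probe (chr19:38477707-38478324, plus strand, a span of 618 bases, likewise across an intron) held 19 whole codons of GIP. The SST probe (chr14:83317603-83317662, minus strand) held all 14 codons of the short form of somatostatin and the stop codon. The SCG2 probe lay at chr7:165091589-165091648 on the minus strand, and the TPH1 probe carried no position. Signals below are log2 processed signals after quantile normalization. No member was saturated on any array, and all 6 were well above background on all 56 arrays that entered the tests except TPH1, which was so on 54.

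The ileal bile acid genes were low on some arrays. This is given before the results because several members, PYY and GIP the most, moved with these genes. At least 1 of the 4 probes of SLC10A2, the ileal bile acid transporter, was not well above background on 8 of the 57 arrays. This rule was chosen after the data were seen, and on some of these arrays other SLC10A2 probes were above background. The 8 arrays were of 3 FFab and 2 NF rabbits of day 35 and of 2 FFab rabbits and 1 NF rabbit of day 49. None of the 19 FF arrays was among them. The levels in this paragraph and the next come from a normalization of all 57 arrays. On these 8 arrays SLC10A2 lay between 2.04 and 5.68 (8.50 to 14.09 on the other 49), FABP6, the ileal bile acid binding protein, between 7.87 and 15.48 (17.71 to 19.29), and PNLIP, pancreatic lipase, between 12.83 and 17.72 (9.82 to 13.34). Markers of small intestinal epithelium in general, EPCAM (15.61 to 16.90 against 15.71 to 16.79) and SI (14.86 to 16.69 against 14.44 to 16.73), overlapped.

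PYY and GIP split on these arrays. On the 8 arrays PYY lay between 5.50 and 6.94 with a median of 6.04, against a median of 7.92 (5.78 to 9.60) on the other 49. GIP lay between 12.77 and 13.43 with a median of 13.18, against a median of 11.76 (10.25 to 13.19) on the others. PYY was thus low and GIP high on the arrays low in the ileal bile acid genes, and for GIP only the upper end of the others reached their range. SCG2 had a median of 7.44 (7.12 to 8.0) on the 8 arrays and 8.04 (7.24 to 8.64) on the 49, and SST and TPH1 overlapped. NTS lay between 11.31 and 13.38 (median 12.39) on 7 of the 8 arrays. This was within the reach of the others (11.51 to 14.40, median 13.13) but for the lowest values. On the array of NF rabbit 78 of day 35 NTS was 3.91 and not above background, while SST (14.73) and TPH1 (7.44) were the highest of all 57 arrays, as was PNLIP (17.72). This array, left out by the authors, was left out of all tests below, and each result was also computed over the 49 arrays with SLC10A2 above background.

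**Figure D1:**
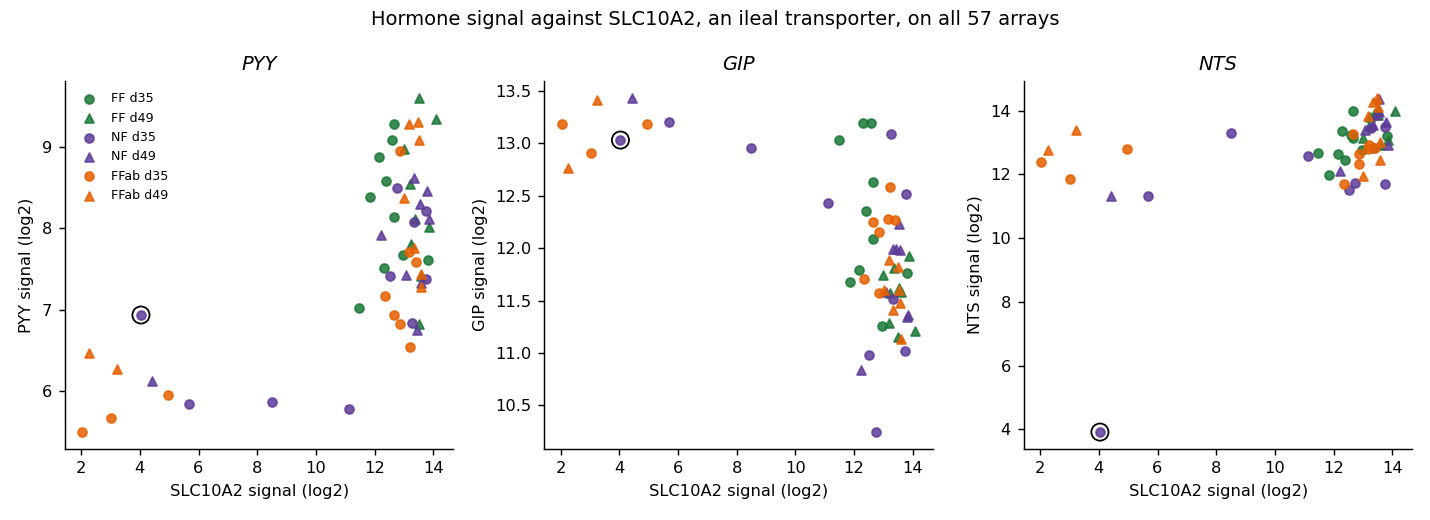
Signal of PYY, GIP and NTS (log2, vertical axes) against that of SLC10A2 (log2, horizontal axes) on all 57 arrays, with colour for the treatment, circles for day 35, triangles for day 49 and a ring around NF rabbit 78. The arrays with SLC10A2 at 5.68 or lower have PYY at 6.94 or lower and GIP at 12.77 or higher.

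Age was the main axis of the design, and among the 6 genes neurotensin was the one that passed the test. A gene was called differentially expressed (DE) at an adjusted p under 0.05 (limma, Benjamini-Hochberg over all 7960 genes) with a log2 fold change (log2FC) beyond 0.5. Over the mean of the 3 treatments 3.54% of all genes were DE between 35 and 49 days of age (282 genes, of which 87 were lower at day 49). Of the 6 members 1 was DE, 2 had an adjusted p under 0.05 and 5 an unadjusted p under 0.05, which 25.9% of all genes had. Their median log2FC was -0.02 and that of all genes -0.01.

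NTS had a higher median at 49 days of age in each treatment. In the FF group it ran from 11.98 to 13.99 with a median of 12.94 at day 35, and from 12.93 to 14.00 with a median of 13.80 at day 49. In the NF group it ran from 11.31 to 13.48 (median 12.58) and then from 11.33 to 14.37 (median 13.55). In the FFab group it ran from 11.70 to 13.26 (median 12.72) and then from 11.95 to 14.40 (median 13.38). The groups overlapped in every treatment, but 8 of 9 FF, 7 of 9 NF and 7 of 9 FFab rabbits of day 49 were above the median of day 35. Over all treatments NTS rose 1.68-fold (log2FC 0.75 ± 0.19 SE, adjusted p = 0.00443). All 5 probes gave a DE call, with log2FC between 0.72 and 0.75, and NTS was higher at day 49 on 7 of the 9 slides (0.72 with the slide as a block). The call was kept when any rabbit was left out (log2FC 0.70 to 0.83) and over the 49 arrays (0.78 ± 0.19, adjusted p = 0.00359), where 3.76% of all genes were DE. PNLIP was 0.56 ± 0.24 higher at day 49 (adjusted p = 0.106) and SLC10A2 0.90 ± 0.84 (adjusted p = 0.554), and their part in the NTS value was not tested.

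Within treatments the NTS estimates lay close together, and none was DE. The log2FC was 0.64 ± 0.33 (SE) in FF, 0.81 ± 0.33 in NF and 0.80 ± 0.33 in FFab, with adjusted p of 0.251, 0.644 and 0.447. The largest difference in age change between treatments was 0.17 (FF lower than NF), with a 95% interval from -1.11 to 0.77. In the FF group 4.57% of all genes were DE, in NF 0.0251% and in FFab 0.0879%, and no member was DE within a treatment, although 2 of the 6 had an unadjusted p under 0.05 by limma in each, as had 21.2% of all genes in FF, 6.23% in NF and 8.66% in FFab. Over the 49 arrays these shares of all genes were 5.34%, 0.188% and 0.0754%, again with no member.

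PYY, the L cell hormone, varied widely between rabbits of a group, with SDs of 0.75 to 1.16. At 35 days of age it ran from 7.03 to 9.29 in FF (median 8.27), from 5.79 to 8.50 in NF (median 7.39) and from 5.51 to 8.96 in FFab (median 6.89). At 49 days it ran from 6.84 to 9.61 in FF (median 8.12), from 6.14 to 8.63 in NF (median 7.93) and from 6.28 to 9.31 in FFab (median 7.76). NF and FFab rabbits reached lower at day 35 than any FF rabbit, and the 3 treatments lay closer together at day 49.

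Over all treatments PYY was 0.56 ± 0.25 (SE) higher at day 49 on the log2 scale, which did not pass (adjusted p = 0.144). The change was 0.08 ± 0.44 in FF, 0.57 ± 0.45 in NF and 1.03 ± 0.44 in FFab, the last a fold of 2.04 with an unadjusted p of 0.0220 and an adjusted p of 0.478. The age change differed by 0.95 between FF and FFab, with a 95% interval from -2.19 to 0.28 for FF minus FFab (unadjusted p = 0.129). Without the arrays low in SLC10A2 the age change in FFab was 0.97 ± 0.44 (adjusted p = 0.843).

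At 35 days of age PYY was 2.16-fold higher in FF than in NF (log2FC 1.11 ± 0.44, unadjusted p = 0.0137, adjusted p = 0.453) and 2.51-fold higher in FF than in FFab (1.33 ± 0.42, unadjusted p = 0.00285, adjusted p = 0.389). Neither difference passed. Of all genes 0.0377% were DE between FF and NF at this age and 0.0126% between FF and FFab. Over the 49 arrays the differences were 0.96 ± 0.39 and 0.83 ± 0.40 (adjusted p = 0.437 and 0.530), so the gap between FF and FFab shrank without the 3 FFab arrays of day 35 that were low in SLC10A2. At 49 days PYY was 0.62 ± 0.45 higher in FF than in NF and 0.38 ± 0.45 higher than in FFab (unadjusted p = 0.171 and 0.404). Over the 49 arrays these day 49 differences were 0.43 ± 0.40 and -0.06 ± 0.41, so FF was no longer higher than FFab.

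**Figure D2:**
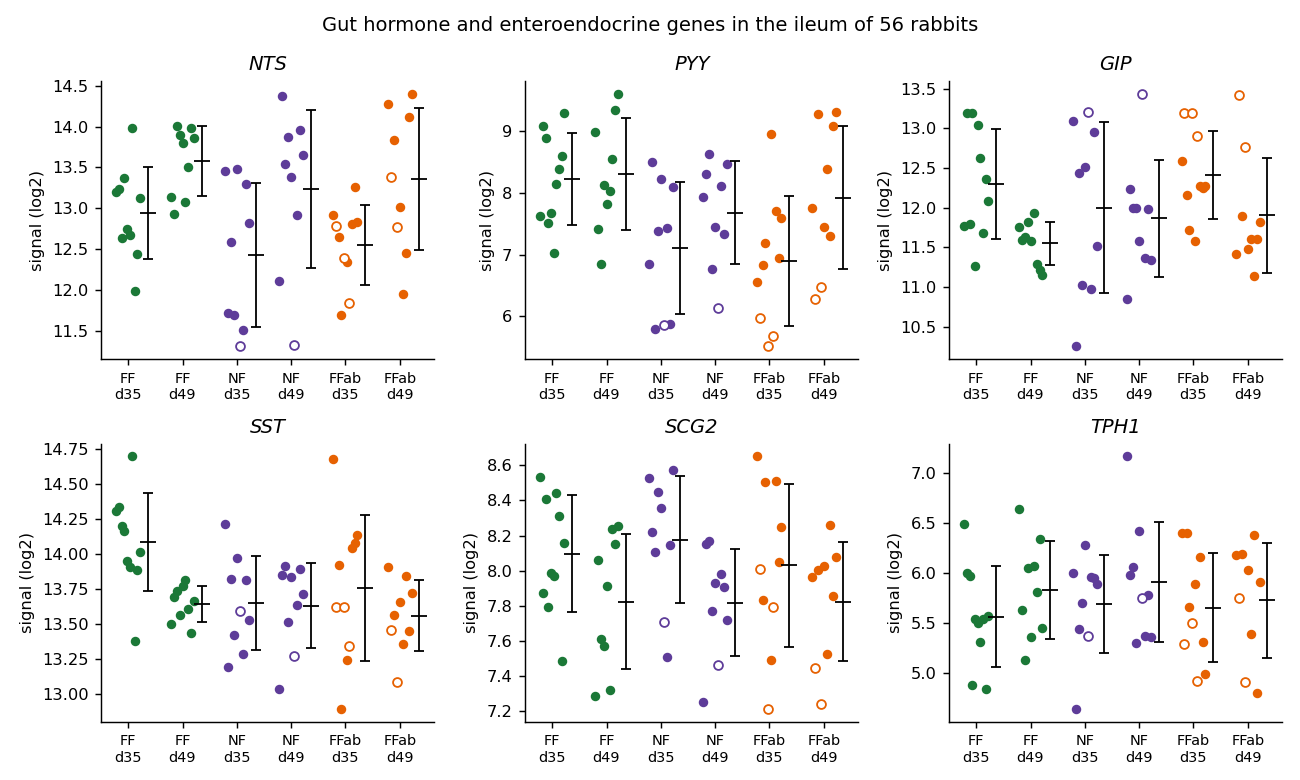
Signal (log2, vertical axes) of the 6 genes in each of 56 rabbits by treatment and age (horizontal axes). The mean and SD of each group stand to the right of its points, and open circles are the 7 arrays low in SLC10A2. NTS shifts upward from day 35 to day 49 in every treatment. GIP narrows in FF and, less so, in NF, and SST narrows in FF and FFab. The open circles lie low for PYY and high for GIP.

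GIP and SST had estimates below 0 with age, and neither was DE. GIP in the FF group ran from 11.26 to 13.20 (median 12.22) at day 35 and from 11.15 to 11.93 (median 11.59) at day 49, and all 9 rabbits of day 49 lay below the median of day 35. In NF it ran from 10.25 to 13.21 (median 12.44) and then from 10.84 to 13.44 (median 11.98), and in FFab from 11.58 to 13.19 (median 12.28) and then from 11.14 to 13.41 (median 11.61). The highest NF and FFab values of day 49 were of rabbits low in SLC10A2.

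Over all treatments GIP differed by -0.46 ± 0.19 (fold 0.725, adjusted p = 0.0916), which did not pass. Over the 49 arrays the difference was -0.49 ± 0.17 with an adjusted p of 0.0390, at the edge of the fold threshold and not beyond it. It was DE when either of 2 rabbits of day 49 low in SLC10A2, 1 FFab and 1 NF, was left out (log2FC of -0.53 for both). It was also DE without NF rabbit 79 of day 35, whose GIP was the lowest of its group (-0.54). In FF the difference was -0.75 ± 0.32 (fold 0.595, adjusted p = 0.153), against -0.13 ± 0.33 in the NF group and -0.51 ± 0.32 in the FFab group (adjusted p of 0.999 and 0.717). The age change of FF minus that of NF was -0.62, with a 95% interval from -1.54 to 0.31.

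SST in the FF group ran from 13.38 to 14.70 (median 14.09, SD 0.349) at day 35 and from 13.44 to 13.82 (median 13.67, SD 0.125) at day 49. The upper part of the range was gone at day 49, and 9 of the 10 rabbits of day 35 were above the highest rabbit of day 49. In NF the median was 13.59 (13.19 to 14.21) and then 13.72 (13.04 to 13.92), and in FFab 13.77 (12.90 to 14.68) and then 13.57 (13.09 to 13.91). The SD went from 0.333 to 0.304 in NF and from 0.517 to 0.255 in FFab. The log2FC in FF was -0.44 ± 0.15 (unadjusted p = 0.00654, adjusted p = 0.0670). It was DE without the FF rabbit of day 35 with the lowest SST (-0.52, adjusted p = 0.0238). It was -0.02 ± 0.16 in NF and -0.20 ± 0.15 in FFab, and the age change of FF minus that of NF was -0.42 ± 0.22 (unadjusted p = 0.0638, adjusted p = 0.999). At 35 days of age SST was 1.35-fold higher in FF than in NF (log2FC 0.43 ± 0.15, unadjusted p = 0.00724, adjusted p = 0.392) and 1.25-fold higher than in FFab (0.32 ± 0.15, adjusted p = 0.762). At 49 days the means of the treatments lay within 0.08 of each other (95% interval of FF minus FFab -0.24 to 0.40).

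SCG2, a general endocrine marker, and TPH1, a gene of enterochromaffin cells, were not DE. SCG2 had medians of 8.07 (7.49 to 8.53) at day 35 and 7.91 (7.29 to 8.25) at day 49 in FF, of 8.22 (7.51 to 8.57) and 7.91 (7.25 to 8.17) in NF, and of 8.03 (7.21 to 8.65) and 7.96 (7.24 to 8.26) in FFab. All 9 NF rabbits of day 49 were below the NF median of day 35. Over all treatments SCG2 was 0.28 ± 0.10 lower on the log2 scale at day 49, a fold of 0.823, with an adjusted p of 0.0453, and it was not DE because the fold was under the threshold. Enteric neurons also express SCG2, and none of the 8 measured genes of 15 on the neuron list was DE over all treatments. Their median log2FC was -0.31, with ELAVL4 at -0.47 ± 0.09 (adjusted p = 0.000294, DE in FF at -0.53) and STMN2 at -0.38 ± 0.09 (adjusted p = 0.00443). The mean level of these 8 genes ran from 6.95 to 7.58 at day 35 and from 6.80 to 7.40 at day 49 in FF, from 6.96 to 7.56 and then from 6.77 to 7.19 in NF, and from 6.87 to 7.74 and then from 6.37 to 7.84 in FFab. Their part in the SCG2 value was not tested.

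TPH1, the dimmest of the 6 probes, had medians of 5.54 (4.83 to 6.49) and 5.81 (5.12 to 6.64) in FF at the 2 ages, of 5.88 (4.63 to 6.28) and 5.77 (5.30 to 7.17) in NF, and of 5.58 (4.92 to 6.40) and 5.91 (4.80 to 6.38) in FFab. Over all treatments its log2FC was 0.19 ± 0.14 (95% interval -0.10 to 0.47, adjusted p = 0.442). Markers of mast cells were higher at day 49. FCER1A, a chain of the IgE receptor, rose by 1.26 ± 0.27 (adjusted p = 0.00104) and MS4A2, another chain, by 0.69 ± 0.21 (adjusted p = 0.0185), while HDC, which makes histamine, did not pass (0.24 ± 0.15). The mean level of these 3 measured genes of 7 on the list ran from 4.60 to 6.28 at day 35 and from 5.60 to 6.56 at day 49 in FF, from 4.84 to 6.82 and then from 5.26 to 7.38 in NF, and from 4.92 to 5.99 and then from 4.72 to 6.88 in FFab. Their part in the TPH1 value was not tested.

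**Figure D3:**
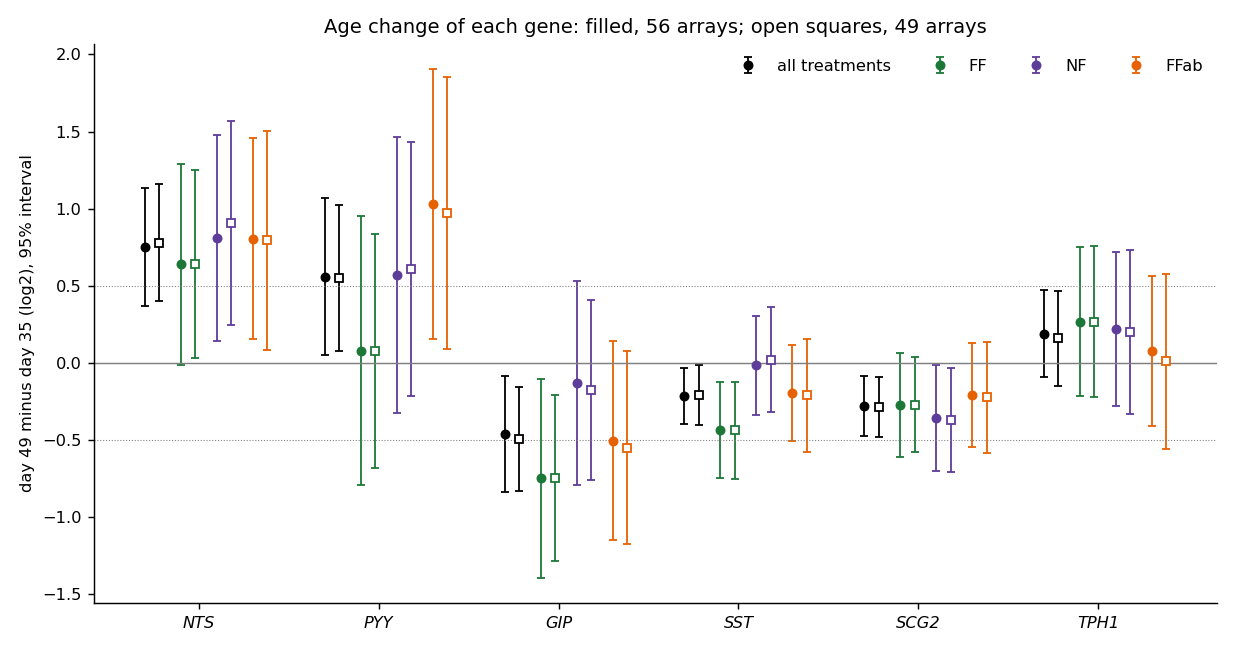
Day 49 minus day 35 (log2, vertical axis) with 95% intervals for each gene (horizontal axis), over all treatments and within FF, NF and FFab, with filled circles for 56 arrays and open squares for 49, and dotted lines at the fold threshold of 0.5. NTS over all treatments, at 0.75, has an interval well above 0, and PYY, GIP and SST have different estimates by treatment with overlapping intervals.

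No member was DE between treatments. Of the 3 differences in age change between treatments (0 of all genes DE by limma, with 371, 230 and 68 at an unadjusted p under 0.05), none had a member with an unadjusted p under 0.05. At 35 days of age 2 of the 6 members, PYY and SST, had an unadjusted p under 0.05 for FF minus NF and for FF minus FFab, and these pairs share the FF rabbits. Of all genes 7.90% and 6.33% did. Over the 49 arrays PYY alone did for FF minus FFab (SST 0.23 ± 0.17, unadjusted p = 0.182). At 49 days no member did in any of the 3 pairs, in which 95, 186 and 145 of all genes did.

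NTS and SST varied together across rabbits once the group means were taken out. The groups were pooled for this, and r within single groups was not computed. For this the deviation of each rabbit from its group mean was taken, and 15 pairs were tested by permutation within groups, with p adjusted over the pairs. Because the arrays low in SLC10A2 stood apart, r is given over the other 49. NTS and SST were correlated (r = 0.64, Spearman's rho = 0.57, adjusted p = 0.00015), as were NTS and GIP (r = 0.59, rho = 0.59, adjusted p = 0.00030) and SST and GIP (r = 0.58, rho = 0.56, adjusted p = 0.00015). Without the 2 rabbits farthest from the median of the first gene named, r was 0.60 for NTS and SST, 0.60 for NTS and GIP and 0.60 for SST and GIP. Over these 49 arrays no pair with PYY, SCG2 or TPH1 passed. Over all 56 arrays NTS and SST passed as well, but NTS with GIP (adjusted p = 0.41) and SST with GIP (adjusted p = 0.17) did not.

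PYY did not follow the other hormones over the 49 arrays (r = 0.01 with NTS, -0.27 with SST, -0.31 with GIP, the last with an adjusted p of 0.14). For the 7 arrays low in SLC10A2 that entered the tests, r was taken of the levels, with group means not removed. It was 0.02 for NTS and SST, 0.38 for PYY and NTS, -0.04 for PYY and GIP and 0.46 for SST and GIP. Over the 15 pairs it ran from -0.66 for PYY and SST to 0.97 for GIP and TPH1. With all 56 arrays pooled 4 pairs passed, NTS with SST, NTS with SCG2 and SST with SCG2 (adjusted p = 0.01 for either SCG2 pair), and PYY with GIP in opposite directions. The last 3 did not pass over the 49 arrays. PNLIP, a pancreatic gene, varied with the same 3 hormones over the 49 arrays, with r of 0.60 for GIP, 0.62 for NTS and 0.52 for SST, against -0.01 for PYY, 0.11 for SCG2 and 0.01 for TPH1. Its part in the correlations was not tested.

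**Figure D4:**
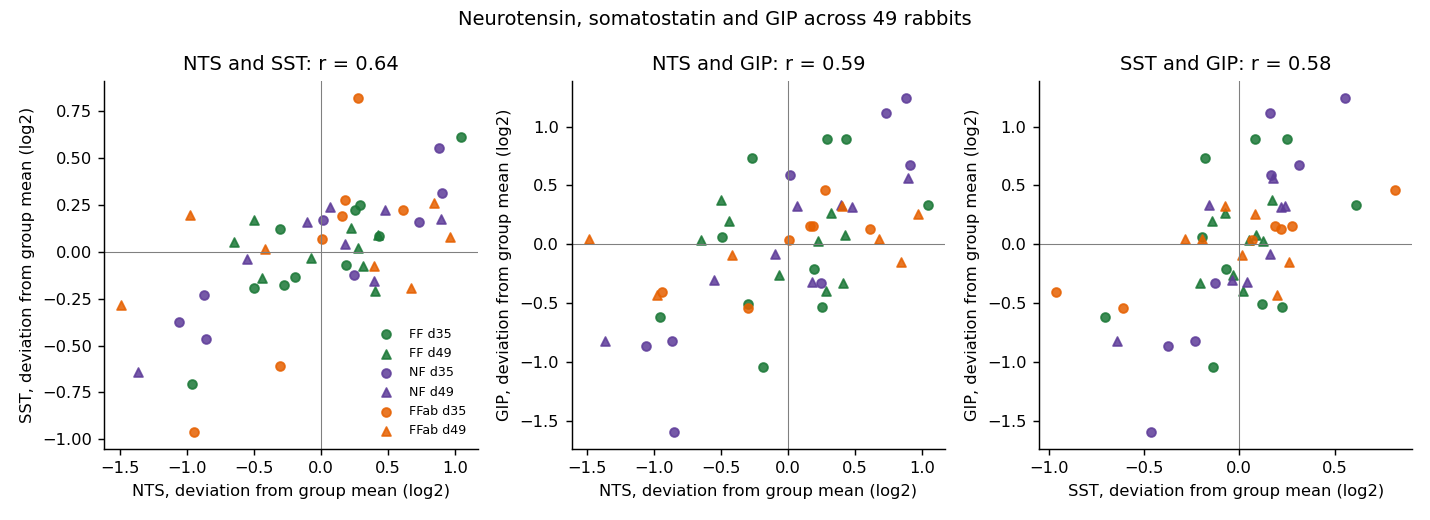
Deviation of each of 49 rabbits from its group mean (log2) for NTS and SST, NTS and GIP, and SST and GIP, with colour for the treatment, circles for day 35 and triangles for day 49. Pooled over the 6 groups the points rise together, with r of 0.64, 0.59 and 0.58. For single groups r was not computed.

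Among the genes most like NTS across the 56 rabbits, by r of the deviations among all 7959 other genes, were HSD17B2, which inactivates sex steroids (r = 0.65), GABARAPL2, an autophagy protein (0.65), SST (0.64) and CALB1, a calcium-binding protein (0.61). SST was thus in place 4 of 7959, over the 49 arrays as well, while GIP moved from place 1780 over 56 arrays to place 14 over 49. The genes most like PYY were SQOR, which oxidises hydrogen sulfide in mitochondria, ADORA2B, an adenosine receptor, TSPAN1, a membrane protein of epithelia, KCNE3, a potassium channel subunit, and PLXDC2. They were the same 5 genes over the 49 arrays, with r between 0.52 and 0.58.

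Beyond the hormones, 5 lists of the gut endocrine system had 44 measured genes, from 3 of 17 transcription factors to 14 of 29 genes for receptors and removal. With age over all treatments 1 of the 44 was DE, CPLX2, and within FF 2 were, SLC5A1 and DPP4, with none in NF or FFab. Of all genes 3.54% and 4.57% were DE in these 2 comparisons, so the lists did not stand out by their counts. CPLX2, a complexin of regulated exocytosis, rose by 0.63 ± 0.19 (SE) on the log2 scale over all treatments (adjusted p = 0.0177). In the FF group it ran from 6.23 to 8.10 (median 6.98) at day 35 and from 6.96 to 8.73 (median 8.09) at day 49. Of the 10 measured genes of processing and granules no other passed, and PCSK1N, the inhibitor of a prohormone convertase, stood at -0.38 ± 0.12 (adjusted p = 0.0223), under the fold threshold. The median of these 10 genes was -0.13.

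SLC5A1, the sodium and glucose cotransporter through which sugar is both absorbed and sensed, rose 1.74-fold with age in FF (log2FC 0.80 ± 0.19, adjusted p = 0.00403). It ran from 12.75 to 14.30 (median 13.56) at day 35 and from 14.01 to 14.82 (median 14.33) at day 49. The log2FC was 0.24 ± 0.19 in NF and 0.46 ± 0.19 in FFab, and the difference of FF from NF was 0.56 ± 0.27 (unadjusted p = 0.0396, adjusted p = 0.999). Of the other 7 measured sensing genes none was DE. FFAR2, a receptor of short-chain fatty acids, was lower at day 49 over all treatments by -0.46 ± 0.13 (adjusted p = 0.0117), under the fold threshold, with medians of 5.39 and 5.06 in FF, 5.99 and 5.14 in NF, and 5.50 and 5.16 in FFab. The median of the 8 was 0.07.

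DPP4, the peptidase that trims GIP and peptide YY, rose 1.77-fold with age in FF (log2FC 0.83 ± 0.21, adjusted p = 0.00759). It ran from 11.42 to 13.45 (median 12.25) at day 35 and from 12.80 to 13.56 (median 13.15) at day 49. The log2FC was 0.25 ± 0.21 in NF and 0.36 ± 0.21 in FFab, and the difference of FF from NF was 0.57 ± 0.30 (unadjusted p = 0.0584, adjusted p = 0.999). SLC5A1 and DPP4 are also genes of absorptive cells, of which SI, sucrase-isomaltase, is a marker. SI was 0.49 ± 0.14 higher at day 49 over all treatments (adjusted p = 0.0131, under the fold threshold). Of the 6 measured genes of 11 on the ileal epithelium list, SI among them, none was DE over all treatments or in FF. The median log2FC of these 6 genes was 0.28 over all treatments and 0.05 in FF. Their part in the SLC5A1 and DPP4 values was not tested. Of the 14 measured genes for hormone receptors and hormone removal no other was DE, and ACE, another peptidase, had the next smallest p (log2FC 0.26 ± 0.13, adjusted p = 0.198). Their median was 0.03.

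Other gut peptides and the transcription factors of endocrine cells gave no DE gene. Of the 9 measured peptides (median log2FC -0.02) TAC1, the tachykinin precursor, had the smallest p (-0.25 ± 0.09, adjusted p = 0.0465, under the fold threshold), followed by PENK, the enkephalin precursor (-0.24 ± 0.10, adjusted p = 0.113). Both are also genes of enteric neurons. Of the 3 measured factors (median -0.08) PAX6 stood at -0.17 ± 0.08 (adjusted p = 0.147) and ATOH1 at -0.08 ± 0.08 (adjusted p = 0.587). Over the 49 arrays 3 of the 44 genes were DE with age over all treatments, CPLX2 (0.73), SLC5A1 (0.51) and DPP4 (0.53), and SLC5A1 and DPP4 were again the DE genes in FF.

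**Figure D5:**
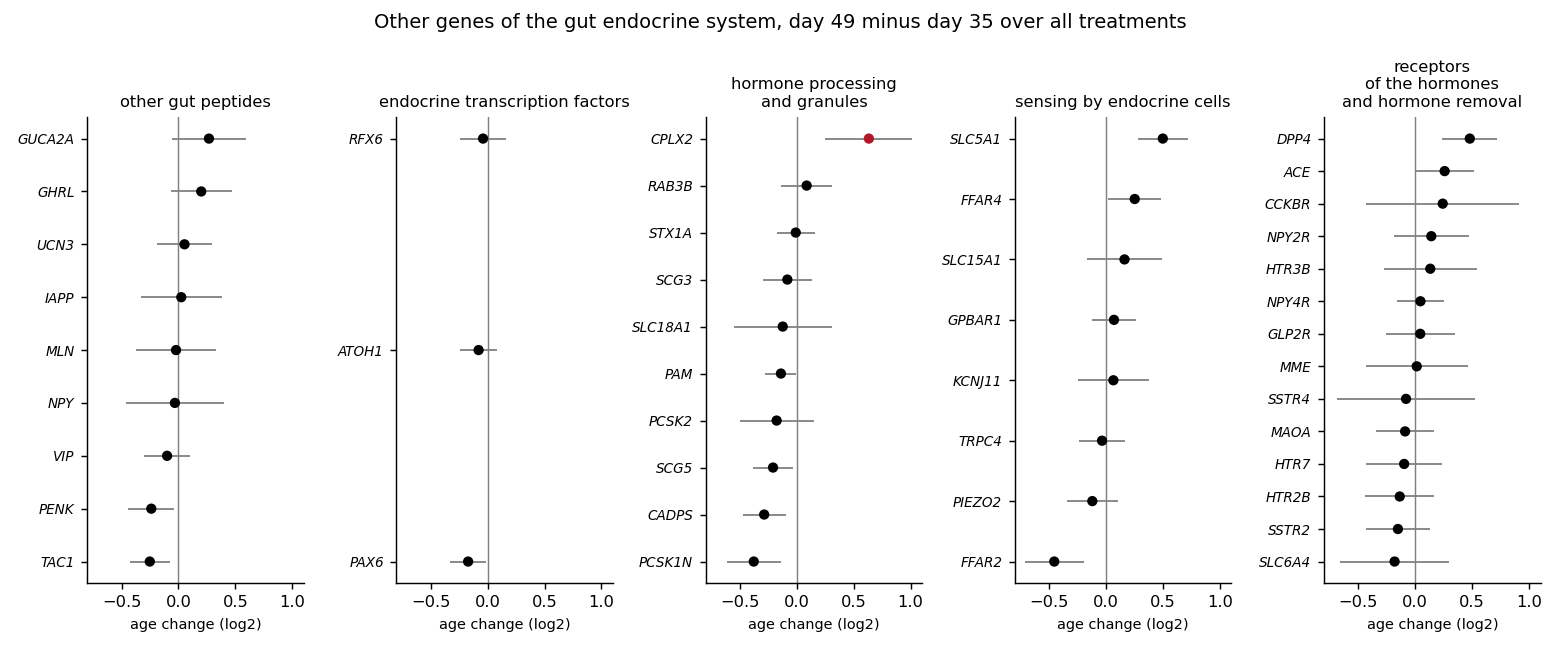
Day 49 minus day 35 over all treatments (log2, horizontal axes) with 95% intervals for the 44 measured genes of 5 lists (vertical axes), with DE genes in red. CPLX2 is the DE gene at 0.63, and SLC5A1 and DPP4 lie just inside the fold threshold.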

How the data were processed

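Ileal RNA of 57 rabbits was hybridised to 1-colour rabbit arrays. The deposited intensity is the processed signal of each spot after background subtraction by Feature Extraction, given as version 10.7.3.1 in the submitters' notes and 10.10.1.1 per the file headers. The deposited log2 value table holds the authors' normalized signals, used here for the choice of probes and as an alternative. Between 66.0% and 83.7% of spots per array were well above background, and the number of arrays limits the precision. Log2 processed signals of 56 arrays were quantile normalized, without NF rabbit 78 of day 35. Probes were kept where at least 50% of their spots were well above background in 75% of a group's arrays, and 1 probe per gene, that of median level, was read. Each of the 6 groups had its own mean in limma (3.58.1, R 4.3.3). The 9 slides held all 6 groups each. On simulated data for the age change in FF, 44.8%, 86.6% and 95.5% of genes changed 1.5-, 2- and 3-fold were found. Named were all members, the list genes that were DE plus the 2 with the smallest p of each list, and the 5 genes most like NTS and PYY, of which 1 is not reported here. Members and lists were chosen with earlier results of these data known. Alternatives were 75th percentile scaling, normexp background correction, the authors' value table, filters, slides as a block, array weights, all 57 arrays and leaving out each rabbit.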

Additional observations from a re-analysis of the deposited data

Results flagged for a closer look

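The array of NF rabbit 78 of day 35, which entered no test above, stood apart from the other 56. NTS was 3.91 on it, farther from the other NF rabbits of day 35 than Dixon's limit allows, the 1 such value among 42 groups tested, of which chance would give about 1 in 20. SST at 14.73, TPH1 at 7.44, SOX10, a gene of enteric glia, at 6.35, SPDEF, a goblet cell factor, at 11.25 and PNLIP at 17.72 were each above all other arrays. The median correlation of this array with the others was 0.915, against 0.951 for the next lowest array. With it included, the age change of NTS in NF was 1.66 instead of 0.81.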

How the results depend on the processing

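The NTS rise with age over all treatments was DE under all 13 alternatives tried beside leaving out single rabbits (log2FC 0.69 to 1.03). The number of members DE over all treatments was 2 with array weights, where PYY joined NTS (0.63, adjusted p = 0.0494), and 1 to 2 when single rabbits were left out; it was 0 to 1 in FF and 0 to 0 in NF and FFab. Pairs of members that passed were 4 over 56 arrays, 2 with all 57 and 8 with slide means removed. Of the 44 list genes, 1 was DE over all treatments with 56 arrays and 3 with 49, an alternative added after the data were seen. The SST change in NF, near 0, turned to 0.0359 with array weights and 0.0186 over the 49 arrays. Leaving out single rabbits also turned the sign of changes near 0, with ranges of -0.0857 to 0.26 for PYY in FF, -0.0757 to 0.0559 for SST in NF, -0.35 to 0.0167 for GIP in NF and -0.0069 to 0.19 for TPH1 in FFab. No paired analysis was possible because rabbit numbers are not shared between groups. The cause of these shifts was not tested.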
